A study of Rattus norvegicus with 12 samples.

Results

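The genes described here are 45 genes of the cell cycle, out of 25620 genes in the read count table, and all 45 were also in the FPKM table. They were chosen by symbol from a list, and that list was set with earlier results of these data known. They were kept apart by phase, with 17 S phase members that switch on or carry out DNA replication, 27 mitosis members that assemble and run the division apparatus, and Ccnd1, the cyclin of early G1. RNA-seq was performed on skin wound tissue of male SD rats made diabetic with streptozotocin, 8 to 12 weeks old when obtained, each with a 10 mm circular full-thickness wound on the back. Wounds received normal saline (control), d-SMG (the dried adhesive gel from the mucus of the snail Achatina fulica), s-GAG (the sulfated glycosaminoglycan purified from that gel) or Alg (a commercial alginate dressing), and tissue was taken on days 3, 7 and 14. There was 1 library for each treatment and day, 12 in all, so no treatment had a replicate within a day. All animals, controls included, were diabetic and wounded, and chemically induced diabetes in young rats is a limited model of chronic ulcers in patients. Whether a library came from 1 animal or from pooled animals was not given in the sources used here.

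A dividing cell passes from G1 into S phase when cyclin E with its kinase and the E2F factors switch on the genes for DNA synthesis, and into mitosis when cyclins A and B activate Cdk1. The mitotic genes are held silent in resting cells by the DREAM complex and are driven by B-Myb and Foxm1 as cells approach division. In a healing skin wound, keratinocytes at the wound edge, fibroblasts and endothelial cells of the granulation tissue, and the matrix of growing hair follicles all divide.

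The promoters of the members differ by phase, and 6 are shown with the motifs of the regulators named above marked where present. The RefSeq tables for the GRCr8 rat assembly held a promoter window of 300 bases (250 before to 50 after the annotated start) for 34 of the 45 members, 22 mitosis and 12 S phase members. The motifs searched, on both strands, were the cell cycle homology region or CHR (TTTGAA or TTCGAA), through which DREAM and B-Myb act, the CCAAT box of NF-Y, and E2F-like sites (TTCCCGC, or TTCGCGC, or TTGCCGC, or TTGGCGC). The CHR letters were in 15 of 22 mitosis windows (68.2%) and 3 of 12 S phase windows (25%), against 19.5% of the 27457 windows of all genes. E2F-like letters ran the other way, in 4 mitosis windows (18.2%) and 8 S phase windows (66.7%), against 2749 of all 27457 windows. CCAAT was in 77.3% of mitosis and 66.7% of S phase windows, against 37.7% of all. A CHR together with CCAAT was found in 59.1% of mitosis windows and 7.83% of all windows. In the windows below, written 5′ to 3′ in the direction of the gene, capitals mark these motifs on either strand, and overlapping E2F-like matches run together. Cdt1 and Gins2 (replication licensing and the replicative helicase), Birc5 (survivin) and Aurka (aurora A kinase) were taken by their rank in a test of the 3 days, and Mcm6 (a helicase subunit) and Cdk1 were added after the motif counts were seen.
Cdt1 (chr19:67528999-67529298, plus strand): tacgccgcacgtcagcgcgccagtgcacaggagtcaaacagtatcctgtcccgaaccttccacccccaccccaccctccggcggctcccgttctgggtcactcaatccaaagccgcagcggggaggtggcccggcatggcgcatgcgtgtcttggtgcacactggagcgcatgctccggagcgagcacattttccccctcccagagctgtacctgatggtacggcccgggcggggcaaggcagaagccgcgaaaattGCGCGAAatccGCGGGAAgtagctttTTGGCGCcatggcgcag
Gins2 (chr19:65548003-65548302, minus strand): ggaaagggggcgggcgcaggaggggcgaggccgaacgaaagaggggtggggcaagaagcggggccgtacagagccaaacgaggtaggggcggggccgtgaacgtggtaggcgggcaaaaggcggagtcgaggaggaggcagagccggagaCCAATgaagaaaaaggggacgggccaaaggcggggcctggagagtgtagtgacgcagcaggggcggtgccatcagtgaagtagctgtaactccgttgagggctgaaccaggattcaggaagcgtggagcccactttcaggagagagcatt
Mcm6 (chr13:42404303-42404602, minus strand): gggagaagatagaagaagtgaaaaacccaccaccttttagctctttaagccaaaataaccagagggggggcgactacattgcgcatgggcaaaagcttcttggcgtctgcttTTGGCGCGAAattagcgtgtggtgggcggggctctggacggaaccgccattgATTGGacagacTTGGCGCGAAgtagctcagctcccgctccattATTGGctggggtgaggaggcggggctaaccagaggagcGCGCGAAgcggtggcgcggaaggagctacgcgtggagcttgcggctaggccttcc
Birc5 (chr10:103571896-103572195, plus strand): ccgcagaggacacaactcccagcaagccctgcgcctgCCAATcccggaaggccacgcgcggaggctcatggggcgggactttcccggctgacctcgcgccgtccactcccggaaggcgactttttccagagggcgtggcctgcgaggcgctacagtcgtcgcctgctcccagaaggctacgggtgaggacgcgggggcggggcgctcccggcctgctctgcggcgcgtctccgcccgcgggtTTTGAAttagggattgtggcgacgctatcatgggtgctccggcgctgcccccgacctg
Aurka (chr3:181560720-181561019, minus strand): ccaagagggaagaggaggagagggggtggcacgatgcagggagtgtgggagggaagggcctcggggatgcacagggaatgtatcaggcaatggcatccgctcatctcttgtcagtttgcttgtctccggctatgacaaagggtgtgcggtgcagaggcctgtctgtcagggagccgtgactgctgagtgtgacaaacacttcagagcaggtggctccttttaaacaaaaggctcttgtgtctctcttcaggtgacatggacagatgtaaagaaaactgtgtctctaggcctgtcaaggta
Cdk1 (chr20:19265043-19265342, plus strand): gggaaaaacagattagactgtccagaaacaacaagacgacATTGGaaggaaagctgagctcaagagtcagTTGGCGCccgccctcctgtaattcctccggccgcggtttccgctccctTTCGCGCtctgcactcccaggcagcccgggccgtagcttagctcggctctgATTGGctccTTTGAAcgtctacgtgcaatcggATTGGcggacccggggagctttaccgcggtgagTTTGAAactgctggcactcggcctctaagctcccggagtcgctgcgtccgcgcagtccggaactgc
The Cdt1 window held 3 E2F-like matches within 50 bases after the start, and the Mcm6 window held 5, of which 4 form 2 overlapping pairs, with 2 CCAAT boxes. The Cdk1 window held 2 CHR, 3 CCAAT and 2 E2F-like matches. Gins2 held a single CCAAT, Birc5 a CHR and a CCAAT, and the Aurka window held none of the letters searched. Each window is that of the first listed start of its gene. Other starts were not searched, and which start was used in these wounds was not tested. The lack of matches for Aurka therefore describes that window only and does not show that the gene's promoter lacks these motifs. A match describes the sequence and does not show that a factor bound there.

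Depth was 13748887 to 38302461 reads on genes per library, and every member had at least 18 reads in every library. Levels are given as CPM, read counts scaled to the size of the library after TMM adjustment. Several libraries differed in tissue makeup. Skeletal muscle genes took 19.9% of reads in d-SMG on day 3 and between 0.804% and 15.8% in the other libraries, and hair follicle keratins and factors took 4.86% in Alg on day 14 against at most 1.21% elsewhere. Basal keratinocyte genes took 0.107% in d-SMG on day 3 and between 0.536% and 2.52% elsewhere. Suprabasal keratinocyte genes took 0.0013% in that library and at least 0.0314% elsewhere. The s-GAG day 14 library stood apart by gene length. Relative to the mean of the 12 libraries, its log2 level fell with gene length (Spearman's rho = -0.49 across 15635 genes, which are not independent replicates), with a median of 0.73 in the shortest and -0.76 in the longest of 4 equal groups of genes by length. The control libraries of days 7 and 14 leaned the other way, with rho of 0.33 and 0.35. Several of the medians that rest on these libraries are also given without them or with the length dependence taken out.

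The summed level of the 27 mitosis members was lowest of all libraries in control on day 14. It was 775, 1360 and 502 CPM in control on days 3, 7 and 14, 955, 1470 and 1548 CPM in d-SMG, 1465, 1293 and 1272 CPM in s-GAG, and 1579, 856 and 2032 CPM in Alg. The control sum on day 14 was therefore below every other library, and the highest sum was that of Alg on the same day. The 17 S phase members had sums of 483, 439 and 312 CPM in control, 456, 511 and 671 CPM in d-SMG, 555, 487 and 857 CPM in s-GAG, and 592, 424 and 681 CPM in Alg. Control on day 14 was again lowest, and the 3 dressed libraries of day 14 were the highest of the 12. Control on day 14 was the lowest of the 12 libraries for 34 of the 45 members, and the highest was s-GAG on day 14 for 21 members and Alg on day 14 for 19. The share of all genes with these extremes was not computed, so the counts are not read as particular to the members. Against the control of day 14, 26.4% of genes compared were at least 2-fold higher in s-GAG and 30.9% were lower by that much.

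**Figure D1:**
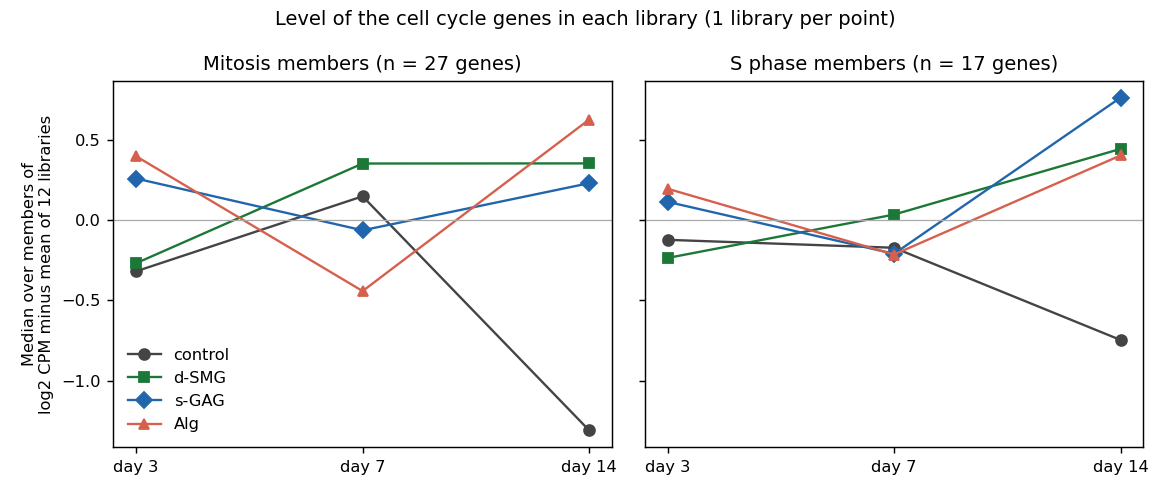
Median over the 27 mitosis members (left) and 17 S phase members (right) of the log2 CPM minus the gene's mean over the 12 libraries, on the vertical axis, by day, with 1 library per point and lines joining the days of a treatment. Control on day 14 lies lowest in both panels, at -1.31 and -0.75, and the 3 dressed libraries of day 14 lie at 0.23 to 0.63 for mitosis and 0.40 to 0.76 for S phase.

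On day 14 the dressed wounds had more RNA of all 45 members than the control wound, when the 3 dressings were averaged. The median log2 difference was 1.83 for mitosis members, 1.25 for S phase members and 1.66 over all 45, against 0.04 over the 16809 genes tested. In edgeR's quasi-likelihood test, 31 members (20 mitosis, 11 S phase) were higher at an unadjusted p under 0.05, where 3.84% of all genes were. No member passed the Benjamini-Hochberg adjusted threshold of 0.05, the smallest adjusted p being 0.494, and no gene of the 16809 did. The same model in DESeq2 called 13 members higher at an adjusted p under 0.05, 10 of mitosis and 3 of S phase, where 0.585% of its genes were called higher. In both tools the lone control was assumed to vary like the dressed libraries, and the 3 different dressings stood in for replicates, so the p-values measure the spread between dressings. In bulk tissue, fewer dividing cells and less RNA per dividing cell cannot be told apart.

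The 3 members of the G1 to S switch differed among themselves. Ccne1 (cyclin E1) was at 1.65 CPM in control, 8.57 in d-SMG, 15.7 in s-GAG and 13.6 in Alg on day 14, a log2 difference of 2.94 ± 0.56 (SE), called by DESeq2 (adjusted p = 0.00017) and not by edgeR (adjusted p = 0.494). All 3 dressed libraries were above the control. The 8 libraries of days 3 and 7 lay between 4.57 and 9.97 CPM, a range that held d-SMG of day 14 and left s-GAG and Alg above it and the control below it. E2f1, the factor that drives S phase genes, was at 8.05 CPM in control, 13.2 in d-SMG, 21.6 in s-GAG and 11.5 in Alg, a log2 difference of 0.96 ± 0.50 that missed an unadjusted p of 0.05. The Ccne1 paralog Ccne2 showed no such order, at 6.74 CPM in control, 6.95 in d-SMG, 3.77 in s-GAG and 21.1 in Alg.

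Of the helicase loaded at replication origins, Mcm5 was at 16.7, 17.1 and 9.31 CPM in control on days 3, 7 and 14, 16.4, 20.6 and 30.4 in d-SMG, 22.6, 16.5 and 33.8 in s-GAG, and 25, 14.3 and 27.9 in Alg. The control was lowest and the dressed libraries highest on day 14, a log2 difference of 1.73 ± 0.44 that edgeR did not call (adjusted p = 0.494). Mcm3 gave a log2 difference of 1.86 ± 0.49 and Cdc6, which loads the helicase, 2.11 ± 0.65, though Cdc6 had only 18 reads in the control of day 14. The MCM subunits did not share 1 size of difference, since Mcm2 (log2 difference 0.75 ± 0.66) and Mcm7 (0.52 ± 0.43) had small values beside their errors, and Mcm2 in s-GAG (44.7 CPM) was below the control (47.4 CPM).

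Among the enzymes and clamp of DNA synthesis, Pcna (the sliding clamp) was at 53.4, 29.5 and 29.4 CPM in control, 39.7, 41.7 and 69.7 in d-SMG, 50.9, 42.8 and 118 in s-GAG, and 47.6, 43.2 and 49.7 in Alg. On day 3 the control was the highest of the 4 libraries and on day 14 the lowest. Rrm2, the regulated subunit of ribonucleotide reductase, was at 11.5, 14.7 and 6.06 CPM in control, 8.57, 15.3 and 18.0 in d-SMG, 15.0, 9.01 and 6.23 in s-GAG, and 17.1, 6.30 and 18.4 in Alg. On day 14, s-GAG lay at the level of the control (log2 fold 0.04, 95% counting interval -0.36 to 0.44), while d-SMG and Alg were higher by 1.57 and 1.60 on the log2 scale. Scaled by library size in place of TMM, the folds were -0.35 in s-GAG, 1.76 in d-SMG and 1.67 in Alg.

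Mitosis members had the larger differences. Ccnb1 (cyclin B1) was at 14.8, 17.3 and 4.95 CPM in control, 7.33, 20.3 and 20.5 in d-SMG, 18.1, 14.0 and 27.7 in s-GAG, and 19.3, 9.41 and 26.0 in Alg. Its partner Cdk1 was at 6.76, 8.67 and 2.28 CPM in control, 7.41, 10.8 and 9.51 in d-SMG, 5.61, 6.72 and 20.4 in s-GAG, and 11.3, 4.51 and 9.96 in Alg. In both genes the control of day 14 was the lowest of the 12 libraries and every dressed library of that day was at least 4 times as high. The log2 differences were 2.33 ± 0.69 and 2.56 ± 0.76, both called by DESeq2 close to the threshold (adjusted p of 0.04897 and 0.04995) and neither by edgeR (adjusted p = 0.579).

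The 8 mitosis members of smallest p on day 14 came from several steps of division. Aurkb, the kinase of the chromosomal passenger complex, differed by 2.71 ± 0.63 on the log2 scale, and its partners Birc5 and Cdca8 by 2.97 ± 0.81 and 2.05 ± 0.53. Ccnb2 differed by 2.59 ± 0.62 and Ccna2 by 1.96 ± 0.46. Mybl2, which encodes B-Myb, differed by 2.08 ± 0.49, Tpx2 of the spindle by 2.12 ± 0.51, and Ndc80 of the outer kinetochore by 2.32 ± 0.58. DESeq2 called each of these 8 members and edgeR none (adjusted p of 0.494 to 0.555). The members of largest p were Cenpe and Kif11, both motor proteins, at 1.25 ± 1.0 and 0.97 ± 0.84.

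Mki67 (Ki-67, the standard marker of cycling cells) was at 136, 248 and 115 CPM in control on days 3, 7 and 14, 212, 269 and 325 in d-SMG, 343, 296 and 317 in s-GAG, and 326, 182 and 382 in Alg. The control was lowest on days 3 and 14 but not on day 7, when Alg was. Top2a, the topoisomerase that untangles chromosomes, was at 79.0, 181 and 76.5 CPM in control, 85.7, 208 and 249 in d-SMG, 261, 206 and 94.2 in s-GAG, and 248, 119 and 347 in Alg. It was high on day 14 in d-SMG and Alg, while s-GAG had a log2 fold of 0.30 over the control (counting interval 0.20 to 0.40), or 0.83 with the length dependence of the libraries taken out. Scaled by library size in place of TMM, the s-GAG fold was -0.09, so its sign depended on the scaling.

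**Figure D2:**
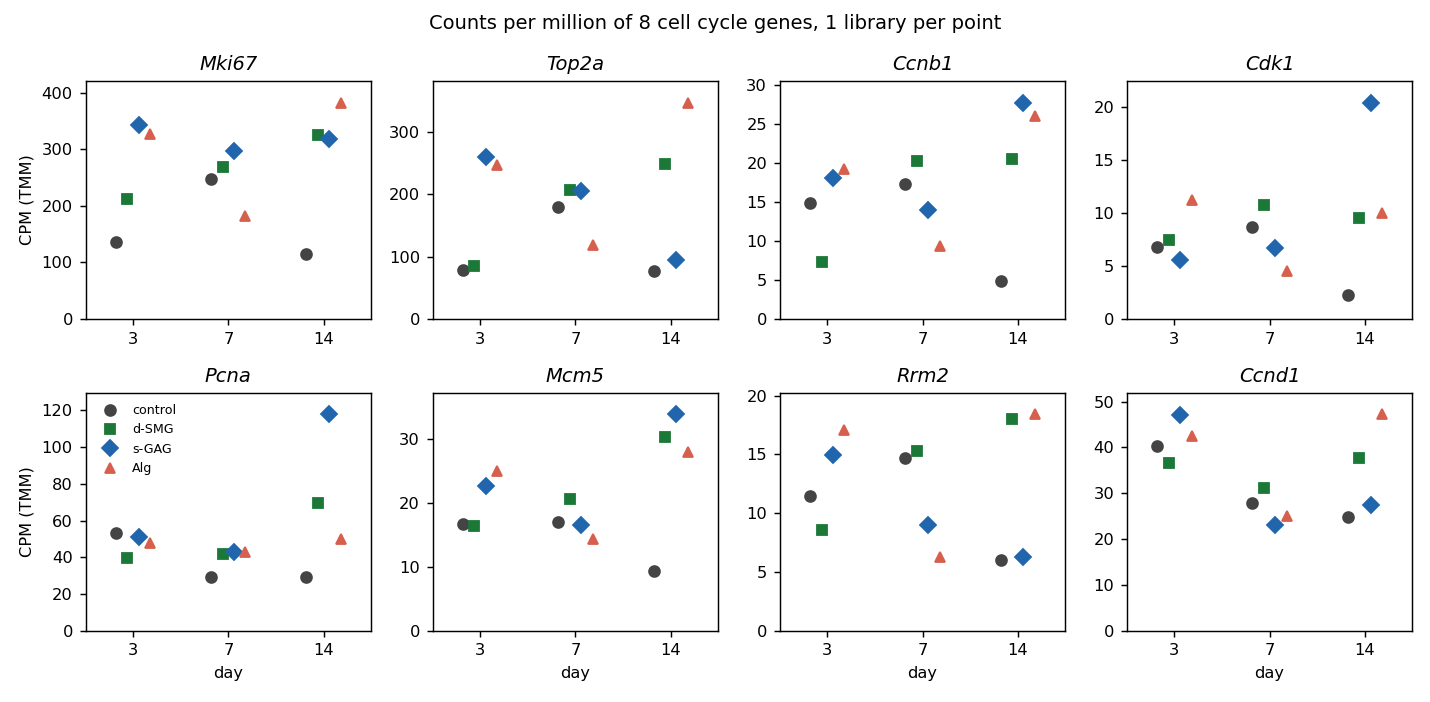
CPM (linear axis from 0) of Mki67, Top2a, Ccnb1, Cdk1, Pcna, Mcm5, Rrm2 and Ccnd1 by day, with 1 library per point and the 4 treatments by symbol. On day 14 the control point is the lowest in all 8 panels, with s-GAG close above it for Top2a, Rrm2 and Ccnd1.

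Each dressing could be set against the control of its day only as 1 library against 1, without a test. On day 14 all 45 members were higher in d-SMG, 38 of them at least 2-fold, where 12.4% of genes compared were, with a median log2 fold of 1.79 for mitosis and 1.24 for S phase. In Alg all 45 were higher and 39 at least 2-fold (9.38% of genes), with medians of 2.05 and 1.18. In s-GAG 39 were higher and 30 at least 2-fold (26.4% of genes), with medians of 1.63 and 1.5, and Cenpe, the kinetochore motor, was more than 2-fold lower at 16 against 39.8 CPM (30.9% of genes were). Scaling by library size in place of TMM moved every s-GAG fold of day 14 by -0.39, so fewer members were then higher. Ccnd1, for example, went from 0.15 to -0.24. The 3 comparisons share the control library. That library was the lowest of its day for 39 members (23 mitosis, 15 S phase and Ccnd1), where 28.8% of genes had the control lowest.

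**Figure D3:**
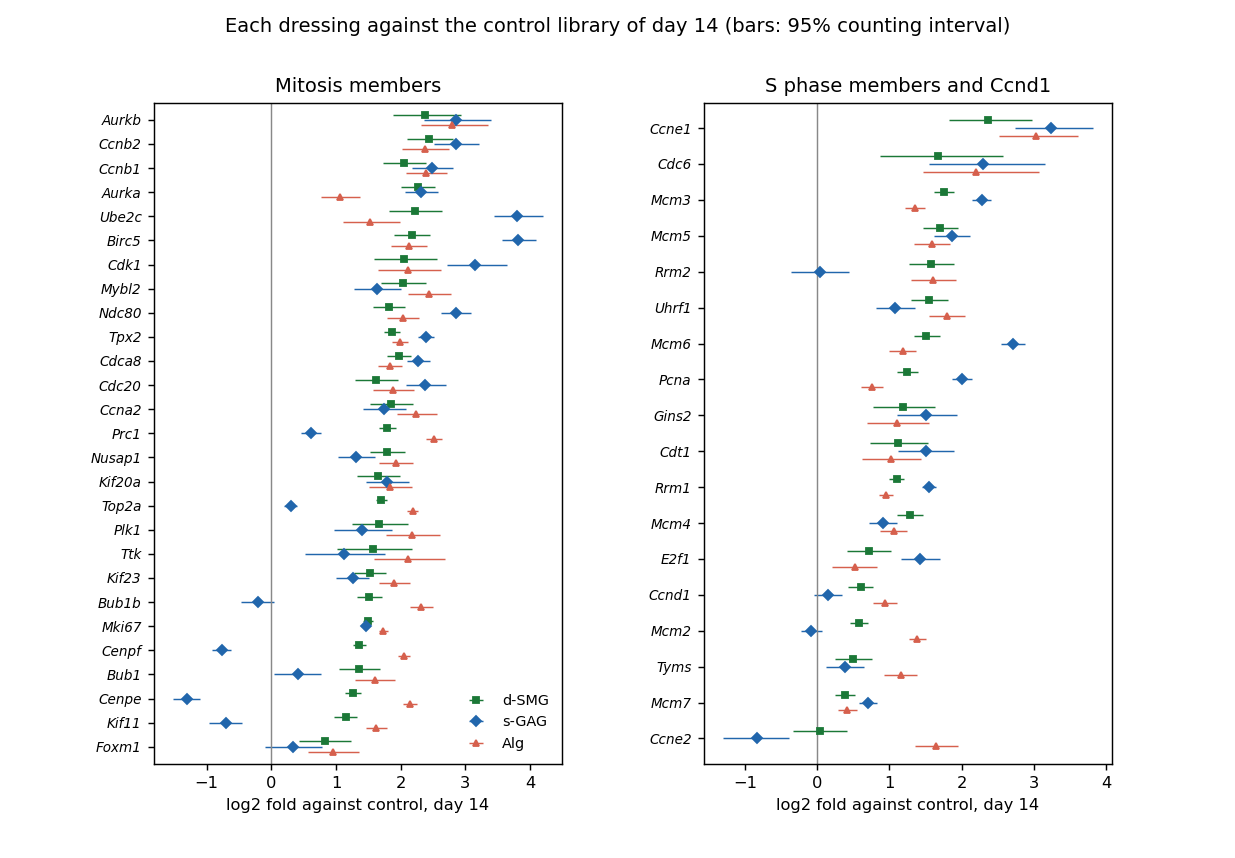
Log2 fold of each dressing against the control library of day 14 for every mitosis member (left) and S phase member with Ccnd1 (right), with 95% counting intervals as bars, which do not cover variation between animals. The d-SMG and Alg points all lie above 0, and the s-GAG points spread from -1.31 for Cenpe to 3.82 for Birc5.

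The spread of the s-GAG folds followed gene length. Length was inferred from the ratio of reads to deposited FPKM, and the members' median was 3.58 kb, close to 3.55 kb over all genes tested. The fold of s-GAG over control on day 14 fell with length over the 45 members (Spearman's rho = -0.68, a description over genes that share both libraries), with a median of 2.28 in the 22 shorter and 0.41 in the 23 longer members. Ube2c (0.832 kb), the ubiquitin carrier of the anaphase complex, had a log2 fold of 3.8 and Cenpe (8.51 kb) of -1.31. The same correlation over all genes was -0.48. In d-SMG rho was -0.54 and in Alg -0.12 over the members. With the length dependence of each library taken out, an alternative chosen after the data were seen, the s-GAG median was 1.52 for mitosis and 1.47 for S phase members, 42 of 45 were higher, and 30 were at least 2-fold higher where 22% of genes were. Cenpe then lay at -0.25 and Cenpf, a large kinetochore protein, moved from -0.77 to 0.33.

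**Figure D4:**
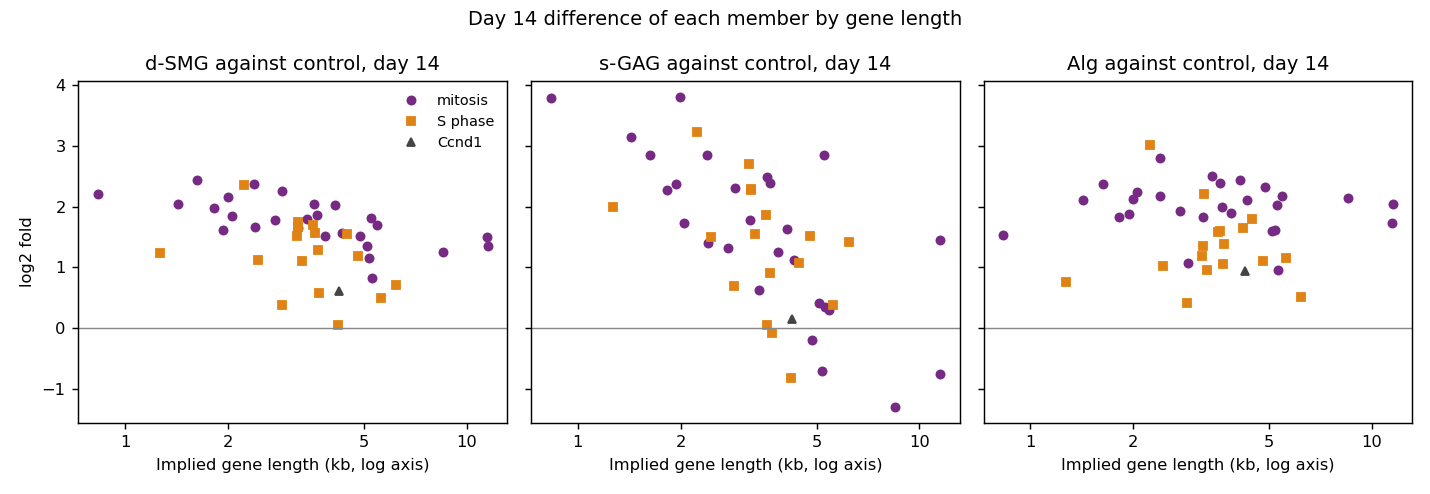
Log2 fold against control on day 14 (vertical axis) by implied gene length in kb (log axis) for d-SMG, s-GAG and Alg, with 1 point per member. The s-GAG points fall with length (rho = -0.68), and the Alg points show little slope (rho = -0.12).

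The day 14 difference did not rest on the s-GAG library. Without it, all 45 members were still higher, the median log2 differences were 1.92 for mitosis and 1.15 for S phase, and 37 members were higher at an unadjusted p under 0.05 in edgeR, where 3.73% of all genes in that fit were. With length-adjusted offsets 34 were, against 3.74% of all genes. Leaving out each library in turn kept between 44 and 45 members higher, and none passed the adjusted threshold of 0.05 in edgeR. The control of day 14 could not be left out of this comparison, since it is the only library on its side.

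Day 3 gave a smaller difference. Of the 45 members 40 were higher in the dressed libraries, with a median log2 difference of 0.42 for mitosis and 0.25 for S phase, and Mki67 alone had an unadjusted p under 0.05 (1.12 ± 0.49, where 1.04% of genes were higher and 1.31% lower at that level, and DESeq2 called no member). The median log2 fold of mitosis members was 0.44 in s-GAG and 0.67 in Alg, but 0.05 in d-SMG. In d-SMG no member was at least 2-fold higher and 2 were lower by that much (9.88% and 13.6% of genes), while 5 were higher in s-GAG (13.9% of genes) and 7 in Alg (11.2%). Scaling by library size in place of TMM turned the d-SMG median to -0.41. In that library the skeletal muscle share was the highest and the basal keratinocyte share the lowest of all. Against the control of day 3, 7 of 8 basal keratinocyte genes were lower in d-SMG and 1 was higher (median log2 fold -3.52). The part of this tissue makeup in the result was not tested. On this day the control itself leaned to short genes (rho = -0.29 against length), and the folds of mitosis members rose with length at rho of 0.54, 0.71 and 0.64 in d-SMG, s-GAG and Alg. Length-adjusted medians were 0.17, 0.52 and 0.76. For Mki67 alone the folds in that order were 0.64, 1.33 and 1.26, and fell to 0.40, 0.93 and 0.90 when length-adjusted.

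Day 7 showed no common direction. In the dressed libraries 31 members were lower and 14 higher than the control, the median log2 differences were -0.24 for mitosis and 0.05 for S phase, and no member had an unadjusted p under 0.05 in edgeR, where 0.732% of genes were higher and 1.23% lower at that level. DESeq2 called no member. The dressings differed in direction. In d-SMG 22 of 27 mitosis members were higher (median log2 fold 0.16), in s-GAG 19 were lower (-0.26), and in Alg 26 were lower (-0.62). With the length dependence taken out these medians were 0.13, -0.23 and -0.70. Without the Alg library of day 7, 24 members were higher in the dressed libraries and the mitosis median was -0.02. No member was at least 2-fold higher in d-SMG, s-GAG or Alg (7.11%, 12.9% and 12.2% of genes), and 3 were at least 2-fold lower in Alg (11.8% of genes). The exception in Alg was Aurka, at 30.0 against 15.5 CPM in the control. Muscle genes took 15.8% of the reads in Alg on day 7 and 0.804% in d-SMG, and their part in the result was not tested.

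The dressed against control difference itself was larger on day 14 than on day 7 in all 45 members, with a median of 2.06 on the log2 scale for mitosis and 1.20 for S phase, and 24 had an unadjusted p under 0.05 in edgeR, where 2% of genes were higher and 1.68% lower. With length-adjusted offsets 44 were larger, the medians were 2.04 and 1.28, and 26 had such a p (2.38% of genes). Against day 3 it was larger in 44 members, with 16 under 0.05, where 2.3% of genes were higher and 2.55% lower. No member passed the adjusted threshold in edgeR in either comparison. DESeq2 called Ccne1 and Mybl2 for day 14 against day 7 (adjusted p of 0.0242 and 0.0314), where 0.0893% of its genes were called higher.

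Over the 3 days together, with a term for day, every dressing gave a positive median, and these medians rested on the control of day 14. The days stood in for replicates of a treatment here, so the p-values measure how treatment differences varied between days. The mean of the 3 dressings was above control in all 45 members, with medians of 0.55 for mitosis and 0.45 for S phase, and Mki67 alone had an unadjusted p under 0.05 in edgeR (0.81 ± 0.36, where 2.77% of genes were higher and 2.06% lower). Without the control library of day 14, 32 of 45 were higher, the medians were 0.06 and 0.13, and no member had an unadjusted p under 0.05. For d-SMG all 45 were higher (median 0.46), and 24 without that control. For Alg all 45 were higher (0.50), and 30 without it. For s-GAG 43 were higher (0.58), and 34 without it. Without the control of day 7 the medians of the mean dressing went up instead, to 1.0 for mitosis and 0.67 for S phase, with 10 members higher at an unadjusted p under 0.05 (2.29% of genes). None of the 4 comparisons called a member in edgeR or DESeq2, and at an unadjusted p under 0.05 edgeR gave no member for d-SMG (0.788% of genes higher and 0.565% lower) or Alg (2.22% and 0.894%) and Mki67 for s-GAG (0.97 ± 0.42, where 5.57% of genes were higher and 3.69% lower).

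Between the days, averaged over treatments, the members differed little. From day 3 to day 7 the median log2 change was -0.17 in S phase and 0.08 in mitosis members, from day 7 to day 14 it was 0.37 and 0.07, and no member passed the adjusted threshold in edgeR or DESeq2. Ccnd1, which responds to growth signals in early G1, was the member with an unadjusted p under 0.05, lower on day 7 than on day 3 by 0.62 ± 0.26 on the log2 scale (0.77% of genes were lower and 1.04% higher at that level). It was at 40.4, 27.9 and 24.7 CPM in control, 36.6, 31.2 and 37.6 in d-SMG, 47.0, 23.1 and 27.4 in s-GAG, and 42.5, 25.1 and 47.2 in Alg. The 4 libraries of day 7 all lay below the 4 of day 3, as they did for 1.03% of genes, and day 14 overlapped both. On day 14 no member had an unadjusted p under 0.05 against day 3 (3.08% of genes were higher and 1.87% lower) or against day 7 (1.6% and 1.51%).

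Other genes of the pathway, on lists chosen with earlier results of these data known, gave similar counts on day 14. Of 50 further mitosis genes all were higher in dressed wounds and 33 had an unadjusted p under 0.05, where 3.84% of all genes were higher at that level, with a median log2 difference of 1.60. Racgap1, a regulator of cytokinesis, differed by 2.15 ± 0.55 and Cks2, a subunit of the cyclin kinases, by 2.10 ± 0.75. Of 49 further S phase genes 45 were higher and 23 had a p under 0.05, with a median of 1.14, including Chaf1b of the chromatin assembly factor at 1.91 ± 0.61 and Tipin of the replication fork at 1.46 ± 0.64. Cdc25b, a phosphatase that activates Cdk1, and Chek1, the checkpoint kinase, had values of 0.27 ± 0.44 and 1.21 ± 0.57 that missed that level. None passed the adjusted threshold in edgeR.

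Inhibitors of the cycle had no common direction. Of 23 CDK inhibitors and G1 brakes tested, 14 were lower and 9 higher in dressed wounds on day 14, beside 8103 lower and 8702 higher of all 16809 genes, with a median log2 difference of -0.59, and 3 were lower at an unadjusted p under 0.05, where 3.99% of genes were. These 3 were named after their values were seen. Cdkn1a (p21) was at 136 CPM in control, 39.4 in d-SMG, 33.8 in s-GAG and 24.9 in Alg, a difference of -2.05 ± 0.55. Cdkn1c (p57) was at 108, 29.7, 28.4 and 22.3 CPM, a difference of -1.99 ± 0.48. Rb1, the retinoblastoma protein that restrains E2F, was at 30.8, 11.3, 4.74 and 14.2 CPM, a difference of -1.62 ± 0.51. In each the control was the highest of the 4 libraries. The inhibitors named by rule missed that level, at 0.16 ± 0.51 for Cdkn2b (p15), 1.0 ± 0.56 for Cdkn2c (p18) and -1.59 ± 0.88 for Ccng1, a target of p53. Of 15 other G1 cyclins, kinases and activators 14 were higher, and Myc and Cdk4 were higher at an unadjusted p under 0.05 (3.84% of all genes), at 1.67 ± 0.54 and 1.56 ± 0.69, while Ccnd2 and E2f3 were at 0.98 ± 0.89 and 0.61 ± 0.52. None of these 5 genes passed the adjusted threshold in edgeR (adjusted p of 0.494 to 0.604).

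Markers of the tissue also differed on day 14. Averaged over the 3 dressings, all 21 hair follicle genes were higher by a median of 4.36 on the log2 scale. Taken singly, 1 was lower than the control in d-SMG and 2 were lower in s-GAG. The median was larger on the earlier days, at 7.34 on day 3 and 5.51 on day 7. On day 14 their share of reads was 0.273% in control, 0.527% in d-SMG, 0.485% in s-GAG and 4.86% in Alg. Of 12 suprabasal keratinocyte genes 11 were lower (median -0.73), with shares of 0.692%, 0.113%, 0.150% and 0.586%. Of 8 basal keratinocyte genes 6 were higher and 2 lower (median 0.37), and they took 0.746%, 2.09%, 2.52% and 1.48% of reads. In s-GAG 4 of the 8 were lower than in control, 3 of them at least 2-fold. The 3 basal genes of smallest p in day 14 against day 3 differed among themselves. Krt14 was at 2396 CPM in control, 10515 in d-SMG, 23453 in s-GAG and 7740 in Alg. Tp63 was at 105, 329, 302 and 188 CPM in the same order. Krt15 was at 1663, 1675, 3693 and 1166 CPM, near the control in d-SMG and below it in Alg. Skeletal muscle genes took 7.57% in control, 1.08% in d-SMG, 11% in s-GAG and 1.51% in Alg. The part of these tissue shares in the cell cycle difference was not tested.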

How the data were processed

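RNA of skin wounds was ribosome-depleted, made into stranded libraries and sequenced in pairs on a NovaSeq, per the labels. The authors deposited read counts per gene and FPKM values per gene, both named by gene symbol. Per the labels' processing notes, bcl2fastq, FastQC, TopHat2 and edgeR were used, and the genome build, annotation and counting settings were not given in the sources used here. Each table held 1 further column of values that matches no described sample and was not used.

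Counts were tested with edgeR 4.0.16 in R 4.3.3 (TMM, filterByExpr, glmQLFit and glmQLFTest, Benjamini-Hochberg over all genes tested, threshold 0.05, two-sided). One model had day and treatment terms (16110 genes tested), and another had a mean for dressed and for control wounds on each day (16809 genes). Each left 6 residual degrees of freedom. With 1 library per group, p-values measure the spread between libraries that differ in treatment. Same-day pairs had no test. Their log2 folds used TMM-scaled counts with 0.5 reads added, at least 10 reads in the pair, and an exact Clopper-Pearson 95% interval, which covers counting error only. DESeq2 1.42.0, other scalings and filters, limma 3.58.1 on log2(FPKM + 1), each library left out, and a length adjustment in 20 bins were alternatives. The test scripts were checked on simulated counts. Correlations with length are over genes.

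The members and lists were chosen with earlier results of these data known. All members could be named. The 8 genes given in every library and the members of smallest and largest p in each comparison were named by rule. So were 3 genes of each other list, not all of which are given here, and the promoters of 2 members per group. Both of these went by p in day 14 against day 3. Promoters came from RefSeq, the first listed start of each gene. The other cell type lists (fibroblast, endothelium, leukocyte, erythroid) had day 14 medians of -0.90, -0.33, 0.26 and 0.10 on the log2 scale, with no adjusted call in edgeR.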

Additional observations from a re-analysis of the deposited data

Results flagged for a closer look

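In 5 members the 3 dressed libraries lay on opposite sides of the control on 2 different days. The share of all genes that did so was not computed, so the count of 5 is not read as particular to the members. Over all genes the control was the highest of its day for 23.9% on day 3 and 23.6% on day 7, and the lowest for 28.8% on day 14. Ccne1, Plk1, Tpx2 and Mybl2 were lower than the control in every dressing on day 7 and higher in every dressing on day 14 with TMM scaling. The day 7 side was narrow in d-SMG, at -0.25, -0.11, -0.003 and -0.47 on the log2 scale in that order of genes, and with library size scaling it became 0.04, 0.18, 0.29 and -0.17, so that Mybl2 alone of the 4 kept the pattern. The difference between those days was 3.37 ± 0.68 on the log2 scale for Ccne1, 2.28 ± 0.73 for Plk1, 2.40 ± 0.64 for Tpx2 and 2.85 ± 0.62 for Mybl2. In edgeR's quasi-likelihood test none of the 4 passed the Benjamini-Hochberg threshold (unadjusted p of 0.000701, 0.0119, 0.00419 and 0.00119, adjusted p of 0.99999 for each), and DESeq2 called Ccne1 and Mybl2. Pcna was lower than the control in every dressing on day 3 and higher on day 14, a difference of 1.66 ± 0.70 with an edgeR adjusted p of 0.78. Its day 3 folds were -0.43 in d-SMG, -0.07 in s-GAG and -0.16 in Alg, became -0.89, 0.10 and -0.02 with library size scaling, and -0.24, 0.29 and 0.12 with the length dependence taken out, so that the day 3 side did not hold under either. Each day rests on 1 control library.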

How the results depend on the processing

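In edgeR no member was called under any scaling, filter, length adjustment or left-out library, nor by limma on FPKM, while DESeq2 called 13 members for dressed against control on day 14 and 2 for day 14 minus day 7. The cause was not tested. Leaving out each library in turn gave 0 called members in every comparison. On day 14 the members higher at an unadjusted p under 0.05 numbered 29 to 37 across the left-out libraries (2.73% to 8.48% of all genes), 22 with library size scaling (2.94%) and 21 with limma on FPKM (3.68%). Library size in place of TMM moved all folds of a pair by its scaling difference, from -0.46 for d-SMG on day 3 to 0.29 for d-SMG on day 7, with -0.39 for s-GAG on day 14. Same-day medians that moved by more than the members' median counting error, which does not cover variation between animals, were as follows. For d-SMG on day 3, S phase gave -0.56 with library size, -0.38 with FPKM + 1 and -0.54 with FPKM + 0.1, and mitosis -0.41, -0.36 and -0.40. For d-SMG on day 7, S phase gave 0.52 with library size and 0.48 with FPKM + 0.1, and mitosis 0.45 and 0.42. For s-GAG on day 14, S phase gave 1.11, 0.70 and 1.07 in the order of day 3, and mitosis 1.24, 1.04 and 1.21. For Alg on day 14, mitosis gave 1.73 with FPKM + 1. The d-SMG mitosis median of day 3 thus changed sign from 0.05, a value within its counting error, and the 3-day d-SMG median of S phase members changed sign from 0.40 to -0.01 without the control of day 14. The 3-day comparisons pair the libraries by day through the day term, without which 3 members in place of 1 were higher at an unadjusted p under 0.05 for the mean of the dressings (2.78% of genes). There was no replicate number to use as a further block. Depth limits the members of few reads, such as Cdc6 with 18 reads in control on day 14.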
